A study of Drosophila melanogaster with 4 samples.

Results

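Long stretches of the Drosophila melanogaster genome in which no region enriched for H3K36me1 was called are described here. H3K36me1 is histone H3 with a single methyl group on lysine 36. The enriched regions of both replicates were merged where they overlapped on the 5 large chromosome arms (2L, 2R, 3L, 3R and X), and every gap of at least 50 kb between consecutive merged regions on an arm was taken. There were 506 such gaps among 5482 gaps in all, or 9.23%. The sequence beyond the outermost region at each arm end was not counted. The members were chosen by the positions of the regions in the 2 replicate lists, so the number, length and place of the gaps and the regions at their edges are described with no test.

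The series holds 4 samples of whole Oregon-R embryos (the line Oregon-R-modENCODE, genotype wild type) aged 14 to 16 hours. They are 2 replicates of chromatin precipitated with an antibody against H3K36me1 and 2 samples of input chromatin, which was sequenced without that antibody and has no values of its own here. All were fixed with formaldehyde, and no other treatment is given. For each replicate the authors deposited a list of regions of enrichment against the matching input. Another list, called the set list here, covers both replicates as a set. The replicate lists hold 5279 and 4389 regions on the 5 arms, and the set list holds 7762. Separate embryo collections are not mentioned in the labels, so differences between the replicates may be technical. In whole embryos, a mark held by few cells and a weak mark held by all cells cannot be told apart, and an uncalled stretch may still carry the mark in a minority of cells.

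As background, lysine 36 of histone H3 is found in mono-, di- and trimethylated forms. In Drosophila the trimethylated form is laid down by Set2 along the bodies of transcribed genes, and the methyltransferases Ash1 and NSD act on the same lysine. Much of the fly genome lies in long domains that lack the histone marks of active genes in a given tissue, and many of these domains hold genes used in few cell types. A gap between H3K36me1 regions is therefore a place with no call for 1 form of the mark, and it is no statement about the other forms.

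Long gaps were few among the gaps, and they held most of the uncalled sequence. The merged regions numbered 5489 and covered 24.8 Mb, or 20.9% of the 119.0 Mb of the 5 arms. The 506 long gaps added up to 58.8 Mb, which was 49.4% of the arms and 62.6% of the length of all gaps. The 495 gaps of 20 kb to just under 50 kb added up to 15.9 Mb, and the 4481 gaps under 20 kb added up to 19.3 Mb. The median long gap was 92.7 kb long, with quartiles of 66.0 kb and 145.1 kb, while the median of all gaps was 3.88 kb. Of the long gaps, 84 were shorter than 60 kb, 228 reached 100 kb, 58 reached 200 kb, 15 reached 300 kb and 3 reached 400 kb. The gaps of at least 100 kb were 45.1% of the long gaps and held 66.7% of their length. Gaps of 40 to 50 kb numbered 108, so the lengths ran on below 50 kb with no empty range.

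**Figure D1:**
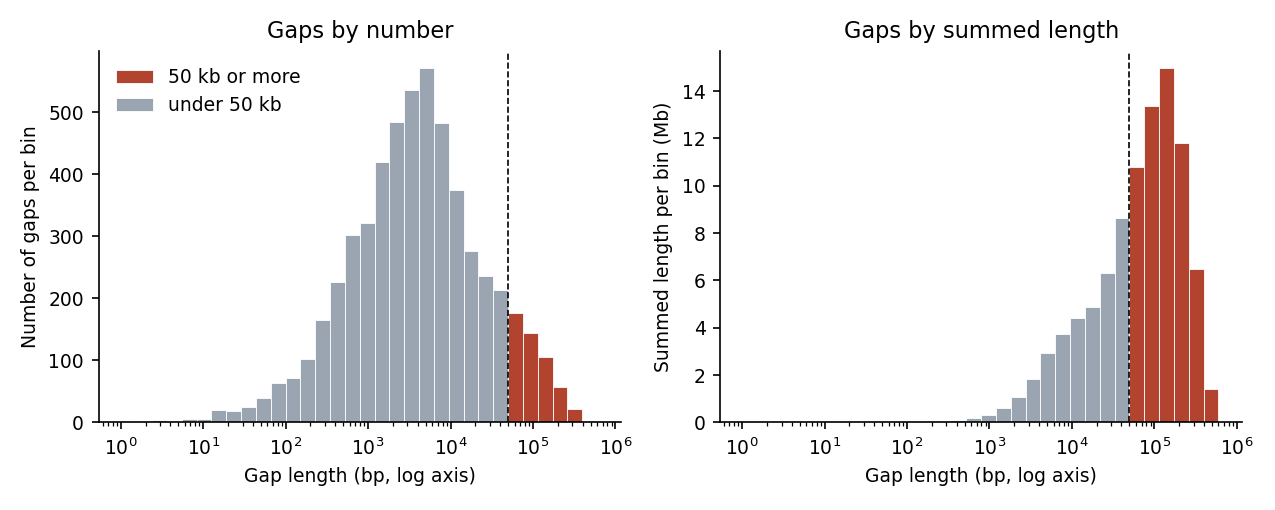
Lengths of all 5482 gaps between merged H3K36me1 regions, in bins of equal width on a log axis in bp, by number (left) and by summed length in Mb (right). Gaps of 50 kb or more (red) are 506 by number and hold 58.8 Mb, and the dashed line marks 50 kb.

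The threshold of 50 kb cut through a run of gaps of similar length. The 3 shortest members were 50052 bp on X from 20298643 to 20348694, 50163 bp on 3L from 7374994 to 7425156, and 50243 bp on 2R from 6046081 to 6096323. The 3 longest gaps left out were 49992 bp on 2L from 9708875 to 9758866, 49494 bp on 2R from 19537940 to 19587433, and 49247 bp on 2R from 8158998 to 8208244.

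The longest gap lay on 2L from 15761813 to 16248855 (positions on FlyBase release 5, both ends included) and measured 487.0 kb. The stretch without a region around it was 487.0 kb in replicate 1 alone and 496.0 kb in replicate 2 alone. Its left edge was a 1846 bp region called in replicate 1 only and its right edge an 8651 bp region called in both replicates. The set list had 3 regions inside it, and 399.7 kb remained free of them in its longest stretch. Both replicates thus gave nearly the same stretch at this site.

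The second longest gap, 467.3 kb on 3L from 23732775 to 24200062, lay close to the centromeric end of its arm and held no region of the set list. In replicate 1 the stretch around it was 484.5 kb. Replicate 2 had no region from 23732775 to the end of 3L, a distance of 810783 bp, so in that replicate the gap had no right edge. A region of 1618 bp called in replicate 1 only separated it from the next gap, 325.8 kb from 24201681 to 24527438, which held 2 regions of the set list. At the centromeric end of 2R, replicate 2 had no region before 235165, so a gap of 211.5 kb from 23657 to 235164 had no left edge in that replicate. These 3 gaps were the members without a full stretch of their own in replicate 2.

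Next in length came a gap of 446.2 kb on 3L from 4697801 to 5143990. It lay far from the centromere, 20.0% of the way from the telomeric end. It measured 448.0 kb in replicate 1 and 446.2 kb in replicate 2, both of its edges were called in both replicates, and it held 3 regions of the set list. On 3R the longest gap was 361.7 kb, from 3361364 to 3723049, with 377.7 kb in replicate 1 and 365.0 kb in replicate 2. On 2R it was 352.9 kb, from 4139509 to 4492366, with 353.2 kb and 353.5 kb in replicates 1 and 2. On X it was 349.4 kb, from 21501092 to 21850538, with 349.8 kb and 349.5 kb. These 4 gaps were found at similar lengths in both replicates. The regions at the edges of the 2R and X gaps were called in both replicates, and those of the 3R gap in a single replicate each.

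Some long gaps were much longer in 1 replicate than in the other. The stretch around the gap on 3R from 1833482 to 2171518 was 338.0 kb in replicate 1, against 493.5 kb in replicate 2. That around the gap on 3R from 22084127 to 22362448 was 492.0 kb in replicate 1, against 278.3 kb in replicate 2. In both cases a region called in a single replicate ended the gap.

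Across all members, the gaps rested more on replicate 1 than on replicate 2. The list of replicate 1 alone gave 524 gaps of at least 50 kb with 61.55 Mb, or 51.7% of the arms, and that of replicate 2 alone gave 552 with 66.9 Mb, or 56.2%. The sequence in both of these sets was 58.3 Mb, which was 94.7% of the gap length of replicate 1 and 87.1% of that of replicate 2. Around a member, the stretch free of regions in replicate 1 alone was longer than the member by a median of 0.0385 kb. In replicate 2 alone it was longer by a median of 3.66 kb. Within 2 kb, 404 members (79.8%) had the same length in replicate 1 as in the merged list, and 212 (42.1% of the 503 with a full stretch) had it in replicate 2. Both replicates met this tolerance at 148 members (29.2%). The stretch was more than 1.5 times the member's length at 11 members in replicate 1 and at 63 in replicate 2.

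The regions that broke a long gap of the other replicate were short and low in score against their whole lists. Those lists include regions called in both replicates, and no comparison with other regions of a single replicate is given. The score is the authors' own value per region, its scale is not stated in the labels or headers, and it is compared within a list only. Of the 552 long gaps of replicate 2, 331 (59.96%) held at least 1 region of replicate 1 that overlapped no region of replicate 2. The 586 regions were 1640 bp long at the median and scored 0.52, whereas the whole list of replicate 1 had medians of 2215 bp and 0.61. Of the 524 long gaps of replicate 1, 125 (23.9%) were broken in this way by 151 regions of replicate 2. Their medians were 1515 bp and 0.61, against 2268 bp and 0.72 for the whole list of replicate 2. The depth behind either list is unknown, and its part in the difference between the replicates was not tested.

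**Figure D2:**
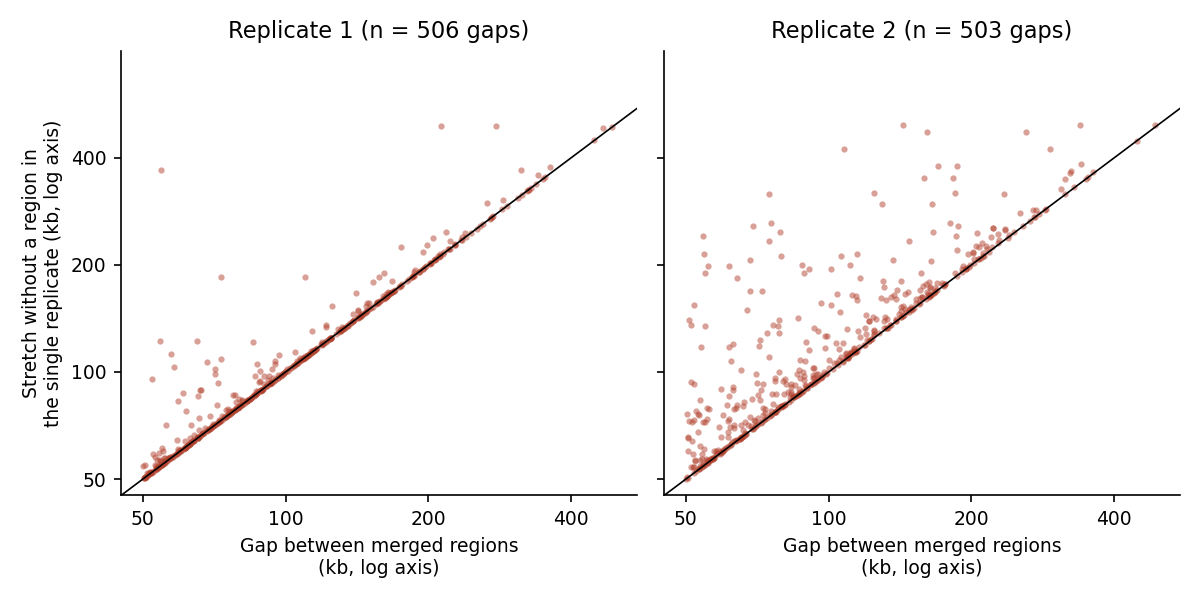
Length in kb of the stretch without a region in replicate 1 (left, 506 gaps) and in replicate 2 (right, 503 gaps) against the length in kb of the gap between merged regions that it contains, both on log axes; the line marks equal lengths. Points lie on or above the line by construction, and 63 gaps in replicate 2 against 11 in replicate 1 lie more than 1.5 times above it.

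All 5 arms held long gaps at a like number per Mb. Arm 2L had 99 long gaps (4.30 per Mb), which took up 51.8% of its sequence. Arm 2R had 88 (4.16 per Mb, 43.4%), 3L had 104 (4.24 per Mb, 48.8%), 3R had 115 (4.12 per Mb, 51.2%) and X had 100 (4.46 per Mb, 51.0%). In replicate 1 alone these shares were 54.2%, 46.3%, 52.1%, 53.0% and 52.2%, and in replicate 2 alone 59.6%, 52.7%, 53.0%, 57.9% and 57.6%. The lowest share was thus on 2R in all 3 cases, with 3L close to it in replicate 2. The median length was 105.5 kb on 2L and between 88.8 kb and 94.8 kb on the other arms. The X, which males carry as a single copy, had a share of 51.0% and a median of 94.5 kb, against 49.0% and 92.6 kb on the 4 autosomal arms together.

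Long gaps were spread along the whole of each arm. With each arm cut into 10 equal parts from telomere to centromere, the share of sequence in long gaps over the 5 arms ranged from 42.0% in the part next to the telomeres to 54.9% in the part next to the centromeres, with no steady course between. Single arms differed more at their ends. In the part next to the centromere, long gaps took up 78.6% of X and 71.6% of 3L, but 46.5% of 2L, 45.2% of 2R and 35.5% of 3R. In the part next to the telomere they took up 57.4% of 3R, 45.2% of 2R, 43.3% of 2L, 35.0% of X and 27.0% of 3L. The part next to the centromere therefore had the highest share of its arm on X and 3L and the lowest on 3R. No mappability values were used here, so how far repeats near the centromeres bear on these shares was not tested.

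On a finer scale the share varied widely. Over the 117 full windows of 1 Mb, the median window had 48.8% of its sequence in long gaps, with quartiles of 39.3% and 58.9%. The highest shares were 83.9% on 3L from 23000001 to 24000000, 83.5% on 2L from 15000001 to 16000000 and 81.3% on 2L from 17000001 to 18000000. The lowest were 6.13% on 3R from 1 to 1000000 and 8.86% on 3L from 1 to 1000000. The window with the lowest share lies at the centromeric end of its arm and the next at the telomeric end, so neither kind of end was always rich in gaps. Of the 117 windows, 5 had more than 75% and 6 had less than 25% of their sequence in long gaps.

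**Figure D3:**
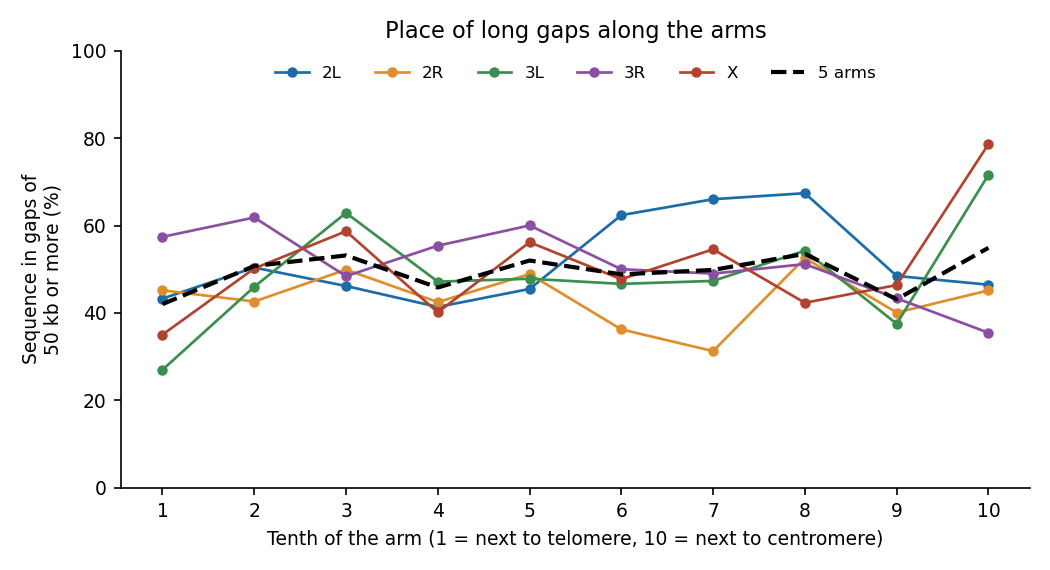
Share (%) of sequence in gaps of 50 kb or more in each of 10 equal parts of the 5 arms, from the telomeric (1) to the centromeric (10) end; coloured lines are single arms and the dashed line is all 5 together. The dashed line stays between 42.0% and 54.9%, while X reaches 78.6% and 3L 71.6% in the last part.

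Many long gaps lay within 50 kb of another, yet a long gap adjoined another long gap about as often as other gaps did. The gaps were put in a group when at most 50 kb lay between the end of a gap and the start of the next. This gave 303 groups, of which 184 held a single gap and 119 held several. The 119 groups contained 322 gaps, or 63.6% of the members, as 69 groups of 2, 26 of 3, 16 of 4, 6 of 5 and 2 of 6. No background is given for this share, so it cannot be called high or low. Taking the gap directly before and after each member, beyond a single merged region, 9.31% of 1010 adjoining gaps were themselves at least 50 kb long. The same share was 9.21% for the gaps adjoining a shorter gap and 9.22% over all gaps. The share next to members was thus at the background, which holds for directly adjoining gaps and not for the groups. The median adjoining gap was 4.71 kb next to a member and 3.81 kb next to a shorter gap.

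The longest group lay on 3R from 21504724 to 22616251 and spanned 1112 kb. It held 6 gaps that made up 90.2% of the span, and between them 20 merged regions covered 73.8 kb. A group of 4 on 3L from 4626044 to 5576773 spanned 950.7 kb, of which 94.99% was gap, and held the 446.2 kb gap described above. A pair on 3L from 23732775 to 24527438 spanned 794.7 kb, of which 99.8% was gap, with the 1618 bp region of replicate 1 as the sole region within. The other group of 6 lay on X from 17780696 to 18518140, spanned 737.4 kb and was 88.9% gap. Among the 119 groups the median span was 300.3 kb, the median share of gap was 91.4%, and 21 groups spanned at least 500 kb.

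The marked stretches between neighbouring long gaps ranged from lone regions to long islands with many regions. There were 501 such stretches, with a median length of 73.3 kb, quartiles of 22.4 kb and 155.6 kb, and a median of 7 merged regions that covered 45.8% of the stretch. Of them, 76 were at most 10 kb long and 93 were at least 200 kb long. In 47 stretches (9.38%) a lone merged region, with a median length of 1674 bp, stood between 2 long gaps. The longest stretch, on 3R from 369937 to 1216754, was 846.8 kb long and held 69 merged regions that covered 54.3% of it. After it, the stretch on X from 19038361 to 19794982 was 756.6 kb long with 63 regions and 42.4% covered.

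**Figure D4:**
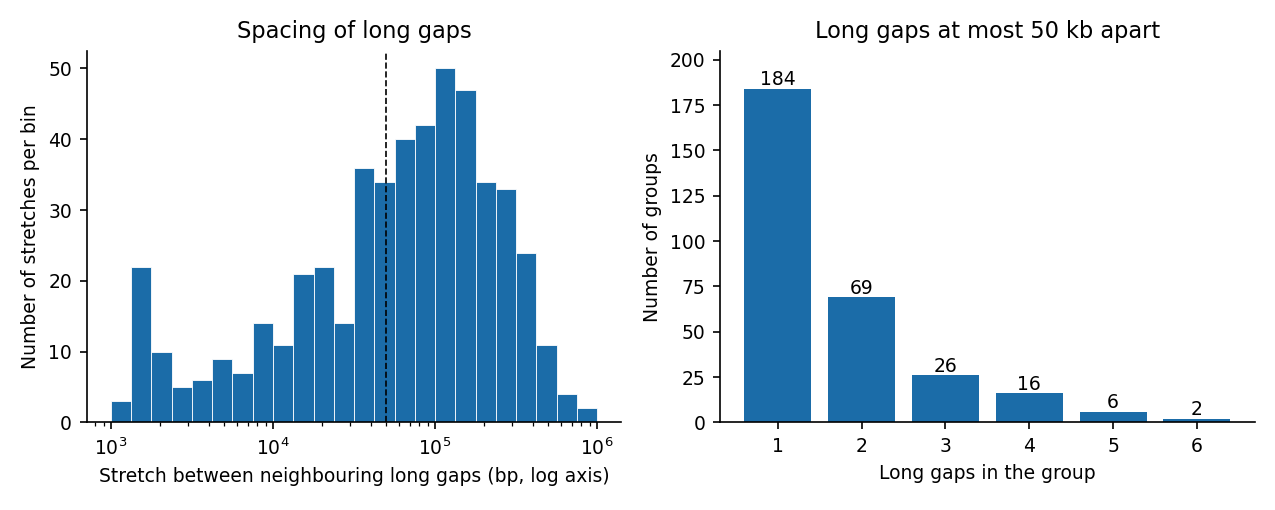
Left, length in bp (log axis) of the 501 stretches between neighbouring long gaps, with a dashed line at 50 kb; right, number of groups by how many long gaps they hold when at most 50 kb separates neighbours. Of 303 groups, 184 hold a single gap, and the most in a group is 6.

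The regions at the edges of long gaps were close to other merged regions in the share called in both replicates and in score, and by value a little shorter. The 506 gaps had 1012 edges, formed by 965 merged regions, since 47 regions bordered a long gap on either side. The edge regions had a median length of 2084 bp with quartiles of 1618 bp and 3627 bp, against 2307 bp with quartiles of 1733 bp and 4360 bp for the 4524 other merged regions. Of the edge regions, 534 (55.3%) were called in both replicates, 320 (33.2%) in replicate 1 only and 111 (11.5%) in replicate 2 only. Over all merged regions these shares were 58.9%, 30.2% and 10.9%, near those of the edge regions. With rows less than 1000 bp apart merged as well, 60.3% of the edge regions and 61.8% of all merged regions were called in both replicates. Regions under 2 kb made up 45.7% of the edge regions and 38.0% of the others, and regions of at least 10 kb made up 7.88% and 8.80%. The edge regions had a median score of 0.61 in replicate 1 and 0.71 in replicate 2, against 0.62 and 0.72 for the others in the same lists. The part of region length in the difference in calls was not tested.

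The 47 lone regions between 2 long gaps stood further apart from the rest. Their median length was 1674 bp, against 2109 bp for the 918 regions that bordered a single long gap. Of the 47, 21 (44.7%) were called in both replicates, 22 in replicate 1 only and 4 in replicate 2 only. Their median score was 0.55 in replicate 1, where 43 of them were called, and 0.68 in replicate 2, where 25 were called.

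Broad domains also stood directly at the edge of long gaps. Edge regions of at least 10 kb numbered 76. The longest was 171.4 kb, on 3R from 6328312 to 6499693, with scores of 1.76 in replicate 1 and 1.84 in replicate 2. The next was 72.2 kb, on X from 3237279 to 3309447, with scores of 1.55 and 1.66. Going outward from the edges of long gaps, 48.8% of the first 10 kb was marked, which includes the edge region by definition. The share was 31.5% from 10 to 20 kb, 27.1% from 20 to 50 kb, 23.0% from 50 to 100 kb and 20.8% from 100 to 200 kb. The last was near the 20.9% of the arms as a whole, a value that takes in the long gaps themselves. Edge regions of at least 10 kb also reach beyond the first 10 kb. Shares outward from shorter gaps are not given, so the fall is not shown to be particular to long gaps.

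Where both replicates called the region at an edge, they placed the edge close together. This held for 555 of the 1012 edges. The positions differed by a median of 222 bp, with quartiles of 93.5 bp and 489.5 bp, and 495 edges (89.2%) agreed within 1 kb. The greatest difference was 5662 bp. Both edges were called in both replicates at 152 gaps (30.0%), with a median length of 93.6 kb. At 190 gaps a shared edge region faced one of replicate 1 only, and at 61 gaps one of replicate 2 only. At the remaining gaps neither edge was shared, with 56 gaps between regions of replicate 1 only, 40 between a region of each replicate alone and 7 between regions of replicate 2 only. Most long gaps therefore had at least 1 edge that rested on a single replicate. Over all merged regions 58.9% were called in both replicates. The edge pairs of shorter gaps are not given, so this is not shown to be particular to long gaps.

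Most long gaps held at least 1 region of the set list. A region was counted when it lay wholly inside the gap. Of the 506 gaps, 373 (73.7%) held such a region and 133 (26.3%) held none. Over gaps of all lengths 30.4% held such a region, and in the gaps of 20 kb to just under 50 kb it was 373 of 495 (75.4%). Counting only the higher-scoring 50% of the set list, 175 of the 506 (34.6%) held a region, against 156 of 495 (31.5%) at 20 kb to just under 50 kb and 10.9% of all gaps, so most long gaps then held none. Of the long gaps, 151 held 1 region, 93 held 2, 65 held 3, 35 held 4 and 29 held 5 or more. Longer gaps did not hold many more, with means of 1.48 regions per gap at 20 to 50 kb, 1.63 at 50 to 100 kb, 1.73 at 100 to 200 kb and 1.81 at 200 kb or more. Counting any overlap of at least 1 bp, 496 of the 506 gaps met a set region. At 466 gaps (92.1%) a set region reached in across an edge. Counting only set regions of at least 1301 bp that lay wholly inside, 266 of the 506 held one. These last counts are not given for shorter gaps. The set list was made from the same samples, so its regions are no independent measurement.

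Per Mb, the set list was sparse inside long gaps. The 853 regions inside them came to 14.5 per Mb, against 46.0 per Mb in gaps of 20 to 50 kb and 64.4 per Mb in gaps under 20 kb. The last class was mixed, with 37.6 per Mb under 5 kb, 72.0 at 5 to 10 kb and 76.9 at 10 to 20 kb. The density thus did not fall steadily with gap length. With the parts of regions that reached in across an edge, the set list covered 1.48 Mb, or 2.52% of the long gaps. It covered 8.16% of the gaps of 20 to 50 kb and 20.4% of those under 20 kb. Inside long gaps the density depended on the distance from an edge. Within 5 kb of an edge it was 52.4 regions per Mb, from 5 to 10 kb it was 31.8, from 10 to 25 kb it was 16.3, from 25 to 50 kb it was 7.43, and farther in it was 3.23 per Mb.

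In the outermost 5 kb, long gaps of all sizes held set regions at a like density, and farther in the values differed more between sizes. In the outermost 5 kb it was 54.3 per Mb in gaps of 50 to 100 kb, 48.2 in gaps of 100 to 200 kb and 55.2 in gaps of 200 kb or more, against 59.8 in gaps of 20 to 50 kb. From 5 to 10 kb inward it was 35.6, 29.4 and 20.7 per Mb in the same classes, from 99, 50 and 12 regions, against 53.9 per Mb. By value the density there was lower the longer the gap, though few regions stood behind the last class. From 10 to 25 kb inward the densities were 18.5, 12.7 and 16.1 per Mb, against 28.1 per Mb. The zones on either side of 5 to 10 kb thus did not keep this order. More than 50 kb from an edge, the gaps of 100 to 200 kb held 38 regions in 6.803 Mb, or 5.59 per Mb, and the gaps of 200 kb or more held 15 regions in 9.60 Mb, or 1.56 per Mb. The inner parts of the longest gaps thus held few set regions, while regions of the replicate lists were absent there by the rule.

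**Figure D5:**
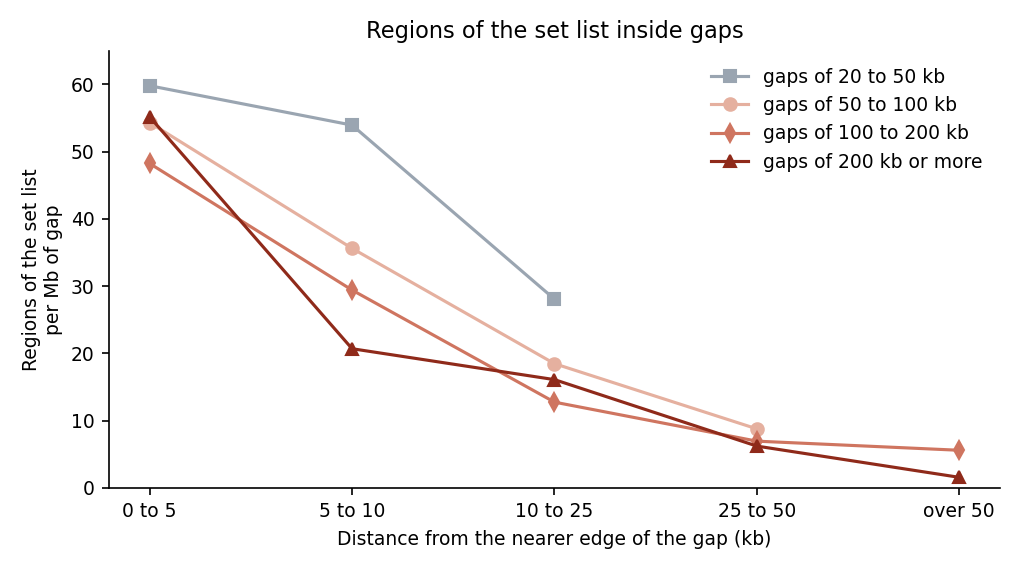
Regions of the set list per Mb of gap sequence by distance in kb from the nearer edge, in 4 classes of gap length; points at each distance pool all gaps of the class. All classes lie between 48.2 and 59.8 per Mb in the outermost 5 kb, and gaps of 200 kb or more reach 1.56 per Mb beyond 50 kb.

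The set regions inside long gaps were short and mostly low in score. Their median length was 1344 bp and the longest was 4253 bp. Of the 853, 390 (45.7%) were shorter than 1301 bp, the length of the shortest region in either replicate list. The shortest region of the set list was 1001 bp. In gaps of 20 to 50 kb and under 20 kb the set regions were much alike, with 47.7% and 42.3% under 1301 bp and medians of 1332 bp and 1376 bp. The median score in long gaps was 0.42, at a median percentile of 33.8 among all set regions of the 5 arms. It was 0.42 in gaps of 20 to 50 kb and 0.41 in gaps under 20 kb as well. In the gaps of 200 kb or more, with 105 set regions, the median score was 0.44 (percentile 43.1) and 53.3% of the regions were shorter than 1301 bp. A few were high in score and very short. Above the 90th percentile of the set list, a score of 0.81, lay 17 of the 853 regions, with a median length of 1097 bp and none longer than 2 kb. This was 1.99% of the set regions in long gaps, against 1.505% in gaps of 20 to 50 kb and 0.887% in gaps under 20 kb. In these shorter classes the regions above the 90th percentile had median lengths of 1008 bp and 1136 bp. The 777 regions above it in the whole list had a median length of 10.2 kb. The whole list includes regions that overlap those of the replicates, which regions inside a gap by definition do not. The highest inside a long gap was 1001 bp long with a score of 2.92, on 3L from 926534 to 927534. The next was 1620 bp long with a score of 2.01, on 3L from 18040934 to 18042553.

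Single gaps differed in how the set list filled them. The gap on 3R from 15298052 to 15621529, 323.5 kb long, held 11 set regions with scores between 0.36 and 0.56, and its longest free stretch was 145.0 kb. A gap of 63.9 kb on 2L from 19366396 to 19430298 held 9, or 140.8 per Mb, with no free stretch above 15.0 kb. At the other end, 57 of the 228 gaps of at least 100 kb and 18 of the 58 of at least 200 kb held none. The longest without any were the 467.3 kb gap on 3L and the 338.0 kb gap on 3R given above. A gap of 315.4 kb followed on 3L, from 17037015 to 17352385. After it came 314.3 kb on 3R, from 23835852 to 24150145.

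Most of the long gaps stayed long when the set list was taken into account. With all set regions removed from a gap, 407 of the 506 (80.4%) kept a free stretch of at least 50 kb and 178 kept one of at least 100 kb. The median longest free stretch was 74.99 kb and the greatest was 466.8 kb. No gap was bridged by the set list. The set list taken alone gave 433 gaps of at least 50 kb. Of the 506 members, 408 overlapped one of them by any length, 10 lay wholly within one and 0 had the same ends.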

How the data were processed

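Chromatin of wild-type embryos was immunoprecipitated for H3K36me1, with input as background. The submitters' processing notes name Bowtie 0.12.7. The deposited files list regions of significant enrichment with a score each, on FlyBase release 5 per the file headers. The caller, its threshold and the score's scale were not given in the sources used here. Depth is unknown because read numbers were not used, and intervals for read counts are left out. A Wilson interval over edge regions served only to judge alternatives.

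Rows of both replicate lists that shared at least 1 bp were merged, and gaps of 50000 bp or more on 1 arm were kept. A set region counted as held when it lay wholly in the gap. The gaps, classes and lists were chosen with earlier results of these data known. No test was run, since both replicates chose the gaps. The rule for regions to be named took every gap of at least 100 kb, which came to 228, so the longest were printed and the others summarised. The 3R gaps set apart by their replicates, groups and set regions were chosen after their values were seen. Genes and sequences were not assigned, because the available gene table follows release 6. On 20 simulated pairs of lists the code found 100 of 100 planted gaps. Python 3.11.15, NumPy 2.4.6 and matplotlib 3.10.9 were used.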

Additional observations from a re-analysis of the deposited data

How the results depend on the processing

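Of 40 alternative values, 29 stayed within 1.5 times the count, within the SD of total length over both replicates (3.81 Mb) or within the 95% Wilson interval of the share (52.2% to 58.5%), which covers counting error only. Some could not move, since merging rows less than 1000 bp apart leaves long gaps as they are. The SD came from the totals of the single replicates, which were themselves among the values judged. With a minimum of 100 kb there were by construction fewer gaps, 228 with 39.2 Mb, in 181 groups, and 171 held a set region. With a minimum of 40 kb the total was 63.6 Mb. With replicate 1 alone there were 524 gaps with 61.55 Mb in 298 groups, and 414 of these gaps held a set region. With replicate 2 alone there were 552 gaps with 66.9 Mb in 291 groups, and 502 held a set region. Between regions called in both replicates 526 of 565 gaps held one, and with the higher-scoring 50% of each list 542 of 578. A single replicate, shared regions only and the higher-scoring 50% each leave out regions of the main list. Set regions that overlapped those can then lie wholly inside a gap. The part of gaps with a set region was larger in each of these settings than the 373 of 506 in the main list, which is no separate result. The total was 71.0 Mb between regions called in both replicates, 76.4 Mb with the higher-scoring 50% of each list, both by fewer regions, and 47.5 Mb in the set list, which has more. With the higher-scoring 50% of the set list 175 gaps held a region. With rows less than 1000 bp apart merged, 60.3% of edge regions were called in both replicates, and the cause was not tested. Of the 506 gaps, 238 had exactly the same ends in replicate 1 alone and 52 in replicate 2 alone. No paired analysis was possible because only the immunoprecipitated samples have lists. The unknown depth limits how far a gap can be read as lack of the mark.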

Other observations

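The rule left out the sequence beyond the outermost region of each arm. It measured 91.0 kb at the centromeric end of 2L and 54.4 kb at the telomeric end of 3L, which are as long as members. At the other arm ends it was between 0.444 kb on 3R next to the centromere and 23.5 kb on X next to the telomere. In the last 1 Mb before the centromere, merged regions covered 1.32% of 3L, 7.15% of 2R, 7.77% of X and 8.85% of 2L, and 43.6% of 3R. In the 1 Mb next to the telomere they covered 46.7% of 3L, 31.9% of 2L, 30.8% of X, 18.9% of 2R and 14.1% of 3R. On chromosome 3 the more marked end was thus the telomeric one of 3L and the centromeric one of 3R.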
